A study of Homo sapiens with 8 samples.

Results

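The genes described here are the zinc finger genes of human chromosome 19 whose symbol is ZNF and a number, with or without a letter after it. The deposited tables list 214 such genes, with 638 introns. A gene was kept when at least 2 of the 8 libraries held 1 or more spliced reads per 1000000 reads of library depth (RPM), and 52 genes with 165 listed introns met that rule, out of 8461 genes that met it among all 15902 listed. The cells were SUM159, an established line from a human breast cancer of the triple-negative, mesenchymal-like kind. They received H3B-8800, a small-molecule inhibitor of the spliceosome's SF3b complex, or the solvent DMSO (vehicle), for 12 h. Each treatment was sequenced as input RNA and as RNA bound by J2, an antibody against double-stranded RNA, which gives 4 groups of 2 biological replicates each. All groups are the same untransfected line, and no immunoprecipitation with a control antibody is among them, so a difference between J2 RNA and input need not reflect double-stranded RNA.

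Proteins of this family bind DNA through tandem fingers, each a short fold in which a pair of cysteines and a pair of histidines hold a zinc ion. Many carry a KRAB domain at the amino end, which recruits the corepressor TRIM28 (KAP1), and through it the histone methyltransferase SETDB1 and HP1 proteins, to the bound site. The best known targets are transposable elements and the family's own genes. Human chromosome 19 holds the densest clusters of these genes, which arose by local duplication. Most family genes share 1 plan, with a few short coding exons followed by a long last exon that encodes all fingers. SF3b is the part of the U2 particle that recognises the branch point near the 3′ end of an intron, so compounds that bind it alter which introns are removed.

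Reads were taken at 2 places of each gene. Spliced reads cross an intron's junction and stand for RNA from which that intron has gone, and intronic reads lie inside it. The intronic share is intronic reads as a percentage of both. Library depths behind the deposited values ran from 47000000 to 57000000 reads. Over all listed introns the intronic share was 3.63% to 3.98% in the 4 vehicle libraries and 10.3% to 13% in the 4 drug libraries. Of 8 mesenchymal markers 7 met the RPM rule, the exception being ZEB1, and their summed spliced level was 1206 to 1638 RPM per library. ESR1 and PGR had 0 spliced reads, and the luminal sum of 167 to 265 RPM came almost wholly from KRT8 and KRT18. The immune sum was at most 0.811 RPM.

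Family levels were low. With vehicle the median member had 1.25 RPM of spliced reads in the input, and the range ran from 0.0919 RPM for ZNF850 to 16.5 RPM for ZNF428. Only 21 of the 52 members reached 1 RPM in all 8 libraries. A further 18 met the rule through drug libraries, with at most 1 vehicle library at 1 RPM, and 5 met it through vehicle libraries. Those 18 and 5 had to differ between treatments, so counts over the 52 are partly set by the rule. The other 29 reached 1 RPM in at least 2 libraries of each treatment. Just outside the rule were ZNF557, ZNF599, ZNF256 and ZNF761, with a second-highest library at 0.979, 0.979, 0.98 and 0.980 RPM. Just inside were ZNF160 and ZNF850 at 1.0 RPM and ZNF585B and ZNF574 at 1.04 RPM. Of the 162 genes left out, 25 had no spliced read in any library and 52, those 25 included, had fewer than 10 in all. ZNF91, ZNF93, ZNF224, ZNF331 and ZNF675, well-known genes of the family, were not analysed here.

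Summed over all 214 genes, which no level rule touches, spliced reads were higher with drug. In the input they came to 162.1 and 167.6 RPM with vehicle, against 184.2 and 204.8 RPM with drug. In J2 RNA the sums were 146.4 and 145.5 RPM with vehicle and 172.2 and 175.9 RPM with drug. In both kinds of RNA every drug library lay above every vehicle library. The means were 164.9 ± 3.89 against 194.5 ± 14.5 RPM in the input and 146.0 ± 0.654 against 174.1 ± 2.66 RPM in J2 RNA (SD, n = 2). RPM values are relative to the library's depth, and in bulk RNA a change in cell number and a change in RNA per cell cannot be told apart. The smallest two-sided p of an exact permutation test of 2 against 2 is 0.333, so these sums carry no test.

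Intronic reads of the same 214 genes were higher with drug by more than their spliced reads were. Their sum in the input was 43.2 ± 0.635 RPM with vehicle and 85.7 ± 4.89 RPM with drug, and in J2 RNA it was 36.4 ± 0.145 and 77.1 ± 0.107 RPM (SD, n = 2). The family's intronic share was thus 20.7% ± 0.630 with vehicle and 30.6% ± 0.378 with drug in the input. In J2 RNA it was 19.97% ± 0.135 and 30.7% ± 0.296. The family started from a share above that of all listed introns. In the 162 genes outside the rule the spliced sum was 1.16 times as high with drug as with vehicle in the input (27.7 and 32.2 RPM), near the 1.18 times of the 52 members. In J2 RNA it was lower with drug (24.9 and 22.6 RPM), where that of the members was higher (121.0 and 151.5 RPM). The RPM rule that parts the 162 from the 52 uses these same spliced reads. It was met through drug libraries by 18 members and through vehicle libraries by 5, so the split itself favours opposite directions of this kind.

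**Figure D1:**
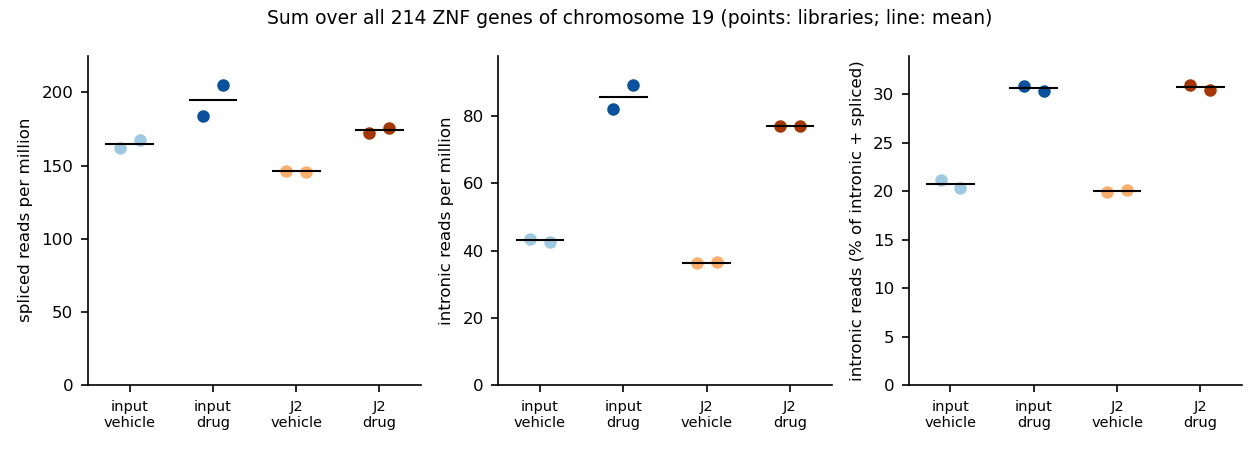
Spliced reads and intronic reads in RPM and intronic share in percent, summed over all 214 listed ZNF genes of chromosome 19, for the 4 groups; points are libraries and lines are means of 2. In each panel both drug libraries lie above both vehicle libraries of the same RNA, and the intronic share is near 20% with vehicle and near 31% with drug.

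In input RNA, more members rose with drug than fell when spliced reads were summed over a gene's introns. Spliced reads rose in 18 of 52 members and fell in 7 (edgeR quasi-likelihood test, adjusted p under 0.05), where 21.8% of the 8461 genes rose and 48.7% fell. The median log2 change was 0.30 over the 52 members and -0.38 over all genes tested. With median-of-ratios scaling, which moves the median of all genes to 0.03, the member split was 30 higher and 2 lower, where 3178 of the 8461 genes were higher and 2914 lower. Among the 29 members that met the rule in both treatments, 8 rose and 5 fell, with a median of 0.25. Without the RPM filter, over the 162 family genes with 10 or more spliced reads in all, 23 rose and 14 fell (median 0.36). Counts over all genes without that filter are not given here. Without the second input vehicle library 4 members fell instead of 7.

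The rule for named genes gave ZNF350, ZNF146, ZNF615 and ZNF317 as the members that rose most in the input. ZNF350, known as ZBRK1, is a KRAB repressor that binds BRCA1. It met the RPM rule through drug libraries, with 1 vehicle library at 1 RPM, so the rule favoured a rise. Its spliced reads were 0.917 and 0.667 RPM with vehicle and 2.72 and 3.25 RPM with drug, and its log2 change was 1.92 ± 0.27 (SE, edgeR adjusted p = 0.00016). Both drug libraries lay far above both vehicle libraries. ZNF146, known as OZF, is a short protein made almost wholly of fingers. Its input values were 3.08 and 3.08 RPM with vehicle and 8.96 and 11.3 RPM with drug, a log2 change of 1.72 ± 0.16 (edgeR adjusted p = 7.6e-06). The groups did not overlap. ZNF615, a KRAB gene in the cluster near the ZNF350 gene, had 1.71 RPM in each vehicle library and 3.94 and 4.48 RPM with drug (log2 change 1.30 ± 0.23, edgeR adjusted p = 0.00068). ZNF317 had 3.23 and 4.0 RPM with vehicle and 8.28 and 7.17 RPM with drug (log2 change 1.09 ± 0.18, edgeR adjusted p = 0.00046). In all 4 genes both drug libraries exceeded both vehicle libraries, as the rule for named genes required. Each call held when any 1 library was left out.

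ZNF414, ZNF749, ZNF444 and ZNF544 were the members named for a fall in the input. ZNF414 lacks a KRAB pattern, and its spliced reads went from 9.69 and 10.8 RPM with vehicle to 4.19 and 4.90 RPM with drug (log2 change -1.17 ± 0.12, edgeR adjusted p = 1.2e-05). ZNF749, a KRAB gene, went from 4.25 and 3.8 RPM to 2.02 and 2.35 RPM (log2 change -0.88 ± 0.16, edgeR adjusted p = 0.00094). ZNF444, which carries a SCAN domain, a module that pairs such proteins, went from 3.52 and 3.25 RPM to 1.94 and 1.88 RPM (log2 change -0.83 ± 0.19, edgeR adjusted p = 0.0028). The vehicle and drug libraries did not overlap in any of the 3, as the rule for named genes required. ZNF544, among the most abundant KRAB members, went from 16.1 and 16.4 RPM to 11 and 12.7 RPM (log2 change -0.46 ± 0.10, edgeR adjusted p = 0.002). These falls also held with any 1 library left out. With median-of-ratios scaling the falls of ZNF444 and ZNF544 did not pass (log2 change -0.42 and -0.05, adjusted p = 0.059 and 0.66).

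**Figure D2:**
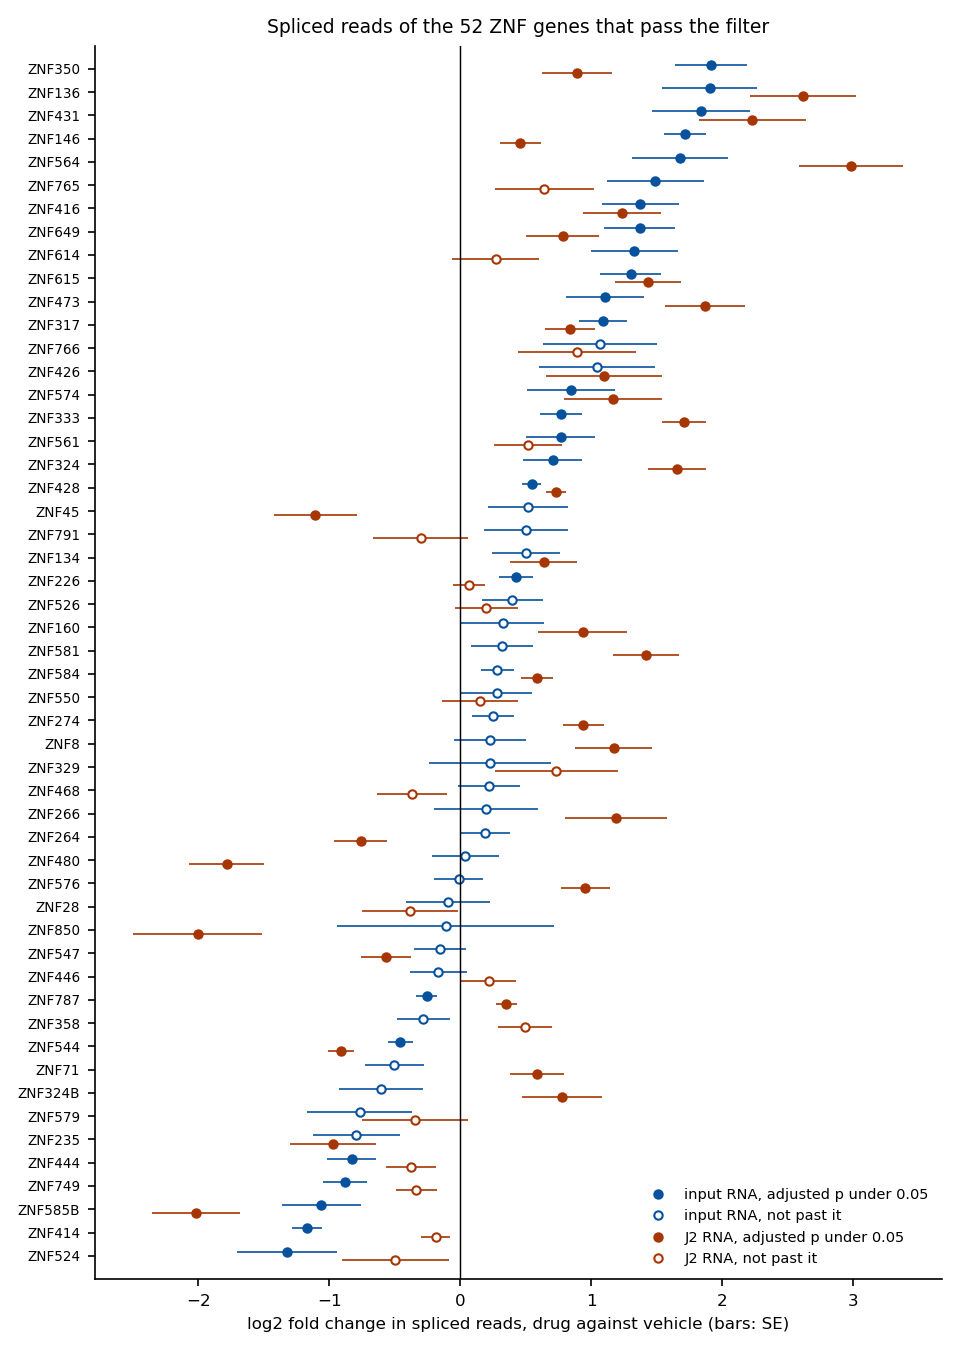
Log2 fold change in spliced reads, drug against vehicle, for each of the 52 members in input RNA and in J2 RNA; bars are SE and filled points have an adjusted p under 0.05. In the input 18 filled points lie right of 0 and 7 left of it, and in J2 RNA 26 and 8.

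In J2 RNA too, more members rose with drug than fell. Spliced reads rose in 26 members and fell in 8, where 34.6% of all genes rose and 39.5% fell. The median log2 change was 0.59 over the members and -0.03 over all genes. With median-of-ratios scaling 28 members were higher and 8 lower, with a median of 0.66 against 0.71 in the input, so which RNA shows the larger member median depends on the scaling. Of all 8461 genes 3214 were then higher and 3142 lower. Of the 29 members that met the rule in both treatments, 13 rose and 5 fell, with a median of 0.35. Without the RPM filter 26 of 162 family genes rose and 21 fell (median 0.09), and counts over all genes in that setting are not given here. The 2 drug comparisons use different libraries, and their log2 changes had a Spearman correlation of 0.64 over the 52 members, given as a description only.

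The largest rises named in J2 RNA were those of ZNF473, ZNF333, ZNF324 and ZNF615. ZNF473, known as ZFP100, takes part in the 3′ processing of histone transcripts by the U7 particle. It met the RPM rule through drug libraries, with no vehicle library at 1 RPM, so the rule favoured a rise. Its J2 libraries had 0.396 and 0.719 RPM with vehicle and 2.02 and 2.09 RPM with drug (log2 change 1.87 ± 0.31, edgeR adjusted p = 0.00035). In the input it had 0.979 and 0.784 RPM with vehicle and 1.87 and 1.92 RPM with drug (log2 change 1.1 ± 0.30, edgeR adjusted p = 0.0077). Both kinds of RNA thus separated the treatments, but the input call was lost without the second input vehicle library (adjusted p = 0.070). ZNF333, a KRAB gene, had 1.85 and 1.95 RPM with vehicle and 6.42 and 6.0 RPM with drug in J2 RNA (log2 change 1.71 ± 0.16, edgeR adjusted p = 9.9e-06). Its input values were 3.54 and 3.22 RPM with vehicle and 5.13 and 6.38 RPM with drug (log2 change 0.77 ± 0.16, edgeR adjusted p = 0.0017). The J2 libraries thus lay below the input with vehicle and at about its level with drug. ZNF324, a KRAB gene, had 1.08 and 0.982 RPM with vehicle and 2.80 and 3.68 RPM with drug in J2 RNA (log2 change 1.65 ± 0.22, edgeR adjusted p = 0.0001). ZNF324 has a near copy, ZNF324B, beside it, and reads may be shared between them. ZNF615 had 0.830 and 0.702 RPM with vehicle and 2.48 and 1.66 RPM with drug in J2 RNA (log2 change 1.43 ± 0.25, edgeR adjusted p = 0.0006).

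ZNF544, ZNF264 and ZNF547, all with a KRAB pattern, were named for falls in J2 RNA. ZNF480, also with the pattern, fell there too but was named for J2 against input with drug and for the interaction. ZNF480 had 2.00 and 1.75 RPM with vehicle and 0.540 and 0.547 RPM with drug in J2 RNA (log2 change -1.78 ± 0.29, edgeR adjusted p = 0.00032). In the input it had 2.02 and 2.43 RPM with vehicle and 1.81 and 2.77 RPM with drug, groups that overlap. ZNF544 had 12.3 and 13 RPM with vehicle and 6.64 and 6.81 RPM with drug in J2 RNA (log2 change -0.91 ± 0.10, edgeR adjusted p = 2.5e-05), the same direction as in the input. ZNF264 had 2.85 and 2.53 RPM with vehicle and 1.68 and 1.49 RPM with drug in J2 RNA (log2 change -0.76 ± 0.20, edgeR adjusted p = 0.0068). Its input values, 3.12 and 3.37 RPM with vehicle and 3.19 and 4.21 RPM with drug, overlapped. ZNF547 changed least of the 4 (log2 change -0.56 ± 0.19, edgeR adjusted p = 0.022), and its call was lost without the first J2 vehicle library or the second J2 drug library (adjusted p up to 0.147). DESeq2 gave it an adjusted p of 0.051.

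ZNF274 and ZNF160 were followed whatever their change. ZNF274 binds the 3′ ends of zinc finger genes and recruits SETDB1 there. It had 3.67 and 3.33 RPM with vehicle and 4.51 and 3.81 RPM with drug in the input (log2 change 0.25 ± 0.16, edgeR adjusted p = 0.19). In J2 RNA it had 2.68 and 3.14 RPM with vehicle and 5.62 and 5.57 RPM with drug (log2 change 0.94 ± 0.16, edgeR adjusted p = 0.00047). The J2 groups stood clearly apart, and that call held with any 1 library left out. ZNF160, a KRAB gene at the edge of the RPM rule, had 0.75 and 0.863 RPM with vehicle and 1.00 and 1.02 RPM with drug in the input (log2 change 0.32 ± 0.32, edgeR adjusted p = 0.38). Its J2 change of 0.94 ± 0.34 (edgeR adjusted p = 0.03) was lost without either input vehicle library, the second J2 vehicle library or the second J2 drug library, where adjusted p reached 0.192, and DESeq2 gave 0.106.

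**Figure D3:**
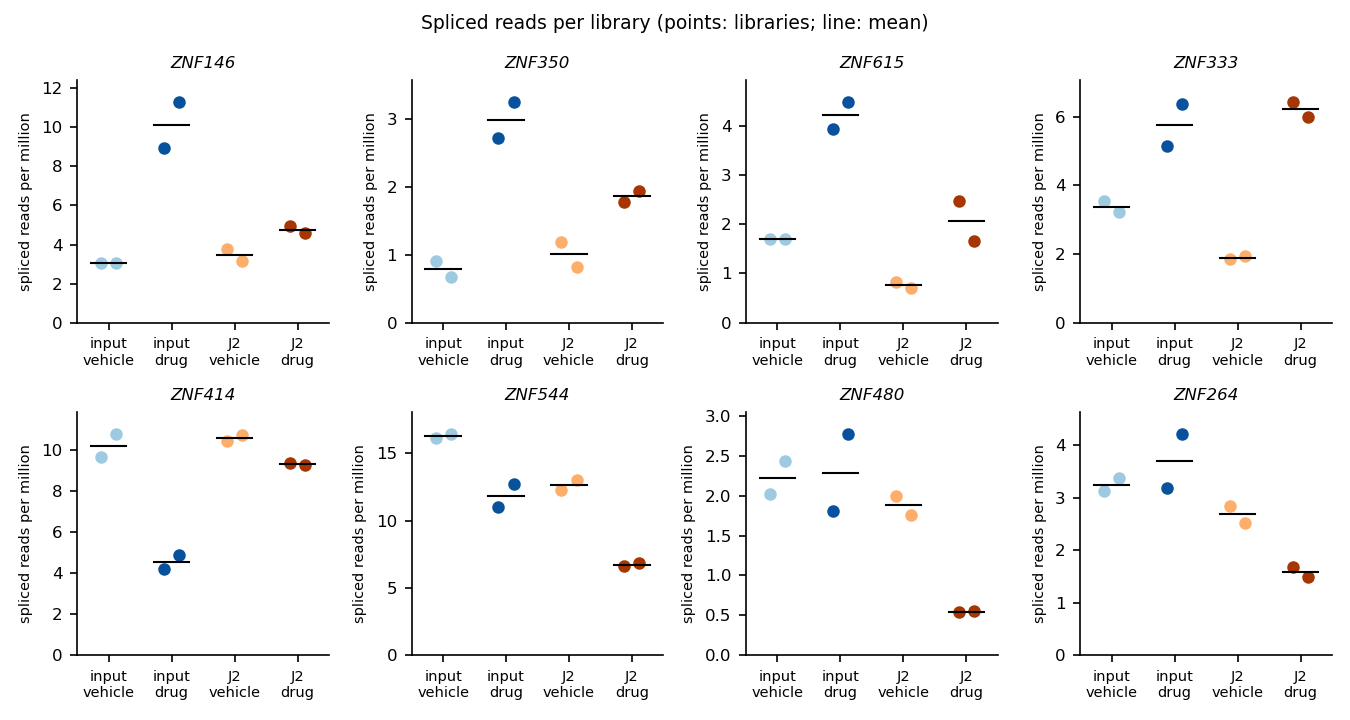
Spliced reads in RPM in each library for 8 named members; points are libraries and lines are means of 2. ZNF146, ZNF350, ZNF615 and ZNF333 are higher with drug in both kinds of RNA, whereas ZNF480 and ZNF264 are lower with drug in J2 RNA and overlap in the input.

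Intronic reads rose in 20 members with drug in the input and fell in 2 (edgeR), where 49.6% of all genes rose and 3.85% fell, and the medians were 1.09 for members and 1.25 for all genes. In J2 RNA 21 rose and 3 fell, where 57.3% and 3.4% of all genes did, with medians of 0.76 and 1.73. Falls numbered 1 in the input without the first input drug library and 1 in J2 RNA without the first J2 vehicle library. Median-of-ratios scaling, which sets the median gene near 0, gave 10 higher and 11 lower members in the input and 9 higher and 16 lower in J2 RNA. Under 20 intronic reads in both groups together were counted for 10 members in the input and 15 in J2 RNA, so at this depth small changes of those members could not be seen.

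The ratio of intronic to spliced reads of a gene, tested with limma on log2((intronic + 1)/(spliced + 1)), shifted less in this family than in the median gene. These ratios include introns that overlap an exon of another gene, whose pooled shares are given below. In the input it rose in 18 members and fell in 3, where 58.4% of all genes rose and 2.15% fell, and the median log2 change was 0.40 for members and 1.68 for all genes. In J2 RNA 17 rose and 7 fell, where 57.1% and 5.13% did, with medians of 0.74 and 1.64. Relative to the median gene the direction turns: with median-of-ratios scaling 5 members were higher and 18 lower in the input, and 6 higher and 26 lower in J2 RNA. Of the 29 members that met the RPM rule in both treatments, 12 rose and 0 fell in the input (limma, 0 also at an unadjusted p under 0.05). Leaving out the first input vehicle or the first input drug library left 1 fall in place of 3 in the input, and leaving out the first or second J2 vehicle library left 4 or 3 falls in place of 7 in J2 RNA.

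Intronic reads with drug lay mostly in single introns. Of 30 members with at least 20 intronic reads and at least 2 listed introns in input with drug, 27 had 50% or more of those reads in 1 intron, and the median top share was 71.0%. In J2 RNA with drug it was 25 of 26 members, with a median of 86.7%. The 10 introns richest in reads held 57.4% of all intronic reads of the members in input with drug, while 46 of 165 introns had none. These counts say where reads lay with drug and include introns that did not gain. For the gain itself, mean intronic RPM with drug less that with vehicle was taken for each intron of the members with at least 20 intronic reads over both groups and at least 2 introns. In the input 24 of 34 such members had a net gain, and in 21 of the 24 the intron that gained most held 50% or more of the summed gains (median 85.3%). In J2 RNA 21 of 31 had a net gain, and it was 20 of the 21 (median 87.5%). Where a member has 2 listed introns, 1 of them must hold 50% or more of the reads or of the summed gains. The 52 members had a median of 3 listed introns, so the counts at 50% or more are partly set by intron number. The same counts over all genes are not given here.

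ZNF317 is an example. Its intron 3 of 5, 519 bases long (GRCh38, chr19:9156749-9157267, plus strand, between coding exons), had in the input 16 and 8 intronic reads in the vehicle libraries and 367 and 388 in the drug libraries. Reads spliced across that intron numbered 15 and 16 with vehicle and 6 and 23 with drug, so its intronic share was 43.6% with vehicle and 96.3% with drug. J2 RNA gave 11 and 5 such reads with vehicle, against 155 and 195 with drug, shares of 26.2% and 92.8%. The listed introns 1, 2 and 5 of ZNF317 stayed between 0% and 4.62% in every group. For the whole gene the log2 ratio change was 3.72 ± 0.35 in the input (limma adjusted p = 8.1e-07) and 3.64 ± 0.35 in J2 RNA (limma adjusted p = 8.8e-07). ZNF317 was thus among the members with the largest rise in the ratio while its spliced reads, taken over all its introns, rose as well.

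ZNF414 paired a fall in spliced reads with a rise in intronic ones. Its intron 1 of 7, 702 bases (chr19:8513342-8514043, minus strand), had 55 and 71 input reads with vehicle, against 382 and 391 with drug, a share of 34.0% and then 92.0%. In J2 RNA that share was 35.4% and 91.6%. Its intron 4 of 426 bases (chr19:8511961-8512386) went from 0 and 2 reads to 49 and 45 reads in the input, from 1.18% to 55.6%. Introns 2, 3 and 5 of ZNF414 were at or below 5.36% in both input groups, and intron 2 reached 15% in J2 RNA with drug. The log2 ratio change of the gene was 3.96 ± 0.21 in the input and 3.76 ± 0.21 in J2 RNA (limma adjusted p = 2.6e-09 and 3.3e-09).

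ZNF226, a KRAB gene, gained reads in intron 4 of 5, 645 bases (chr19:44172215-44172859, plus strand, between coding exons). In the input 16 and 17 reads lay there with vehicle, against 115 and 121 with drug, shares of 15.9% and 65.2%. In J2 RNA these were 6 and 12 with vehicle, against 178 and 246 with drug, shares of 5.84% and 64.0%. Its intron 3, of 1992 bases, had at most 1 intronic read in any library. ZNF226 thus held the gain in 1 of 3 listed introns (log2 ratio change of the gene 2.32 ± 0.29 in the input and 3.72 ± 0.29 in J2 RNA, limma adjusted p = 1.4e-05 and 1.2e-07). Relative to the median gene its input change was 0.58, with an adjusted p of 0.129.

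Other members differed in which introns held reads. ZNF274 had 14 and 25 reads in intron 6 of 7 with vehicle and 79 and 106 with drug in the input, shares of 24.2% and 55.9%. Its intron 5 moved from 27.9% to 36.5% in the input and from 18.8% to 9.28% in J2 RNA, and intron 7 had no read in the input. ZNF274's ratio change of 1.36 ± 0.34 in the input (limma adjusted p = 0.0037) was lost without the first input vehicle or the second input drug library (adjusted p = 0.057), and relative to the median gene it was -0.38. ZNF333 was rich in intronic reads with and without drug: introns 5, 6 and 7 of 11 had shares of 57.7%, 63.1% and 75.4% with vehicle and 55.5%, 69.3% and 78.5% with drug in the input. Its intron 2 went from 0 reads with vehicle to 22 and 11 with drug. ZNF358, a member without a KRAB pattern, has a single intron, with 40 and 73 input reads with vehicle, against 222 and 246 with drug. That intron's share went from 31.8% to 71.0% in the input and from 42.1% to 61.1% in J2 RNA (log2 ratio change 2.43 ± 0.27 and 1.10 ± 0.27, limma adjusted p = 3.7e-06 and 0.003). Relative to the median gene ZNF358's J2 change was -0.69. ZNF584, described because it stayed low, had shares of at most 2.60% in its 3 introns in every group. ZNF615, one of the members whose spliced reads rose most, had at most 5.38% of intronic reads in any library.

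More members were named for the ratio. ZNF473 had 7 and 0 intronic reads with vehicle, against 48 and 79 with drug in the input (log2 ratio change 3.43 ± 0.85, limma adjusted p = 0.0035), mostly in its intron 3, which overlaps an exon of another gene, AC010624.3. Without that intron the adjusted p was 0.203. ZNF526 rose by 2.72 ± 0.61 in the input (limma adjusted p = 0.0018), through intron 1, which went from 3.70% to 24.3%. ZNF787, which lacks a KRAB pattern, rose by 3.48 ± 0.53 in J2 RNA (limma adjusted p = 7.6e-05), from 0 reads with vehicle to 26 and 45 with drug in its intron 2. These 3 genes kept low shares outside those introns, at most 14.5%. ZNF576 rose by 2.73 ± 0.79 in the input (limma adjusted p = 0.0091), from 2 and 0 reads to 14 and 7, and the call was lost without the second input vehicle or first input drug library (adjusted p up to 0.0905). Relative to the median gene the changes of ZNF473, ZNF526 and ZNF576 did not pass (log2 1.70, 0.98 and 1.00, adjusted p = 0.120, 0.217 and 0.333). ZNF749 has reads in an intron that overlaps exons of other genes, and its log2 ratio change of -0.18 ± 0.18 in the input (limma adjusted p = 0.4) turned to 2.56 when introns with such exons were left out.

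**Figure D4:**
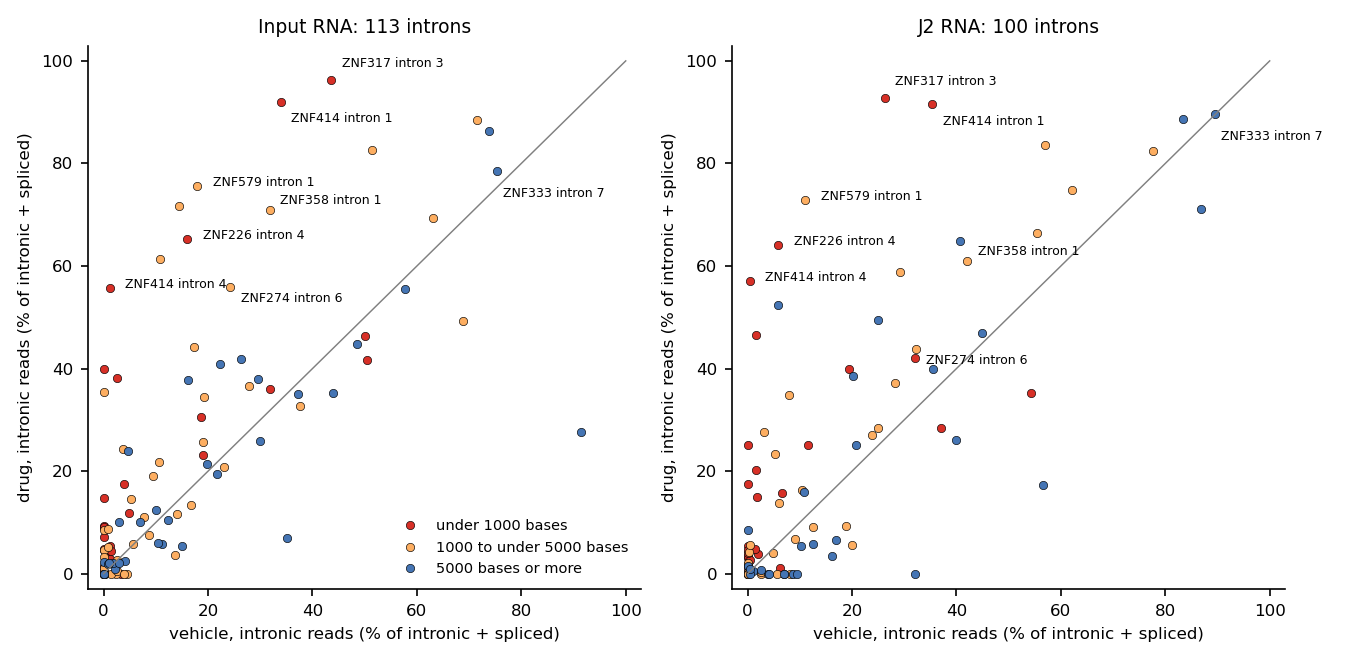
Intronic share of each member intron with at least 20 reads in both groups, vehicle on the x axis and drug on the y axis, in percent of intronic and spliced reads, for input RNA (113 introns) and J2 RNA (100 introns); colour gives intron length and the line marks equal shares. ZNF317 intron 3 and ZNF414 intron 1 lie above 90% with drug, and introns of 5000 bases or more lie on both sides of the line.

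Introns were also compared by length. Of member introns with at least 20 reads in both input groups, 6 of 37 under 1000 bases gained 20 points or more of intronic share, as did 9 of 45 from 1000 to under 5000 bases and 1 of 31 of 5000 bases or more. In J2 RNA these were 7 of 33, 5 of 38 and 3 of 29. The order of the 2 shorter classes differed between the 2 kinds of RNA, and no difference between classes was tested. Pooled over members, the share of introns under 1000 bases was 10.8% with vehicle and 39.4% with drug in the input, while J2 RNA gave 10.4% and 39.5%. ZNF317 intron 3 and ZNF414 intron 1 held 64.6% of the intronic reads of that class in input with drug, and without them its input share was 8.02% and 19.1%. Introns from 1000 to under 5000 bases went from 17.5% to 32.6% in the input and from 17.6% to 31.5% in J2 RNA. Introns of 5000 bases or more went from 17.9% to 16.4% in the input and from 18.2% to 19.8% in J2 RNA.

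By place in the transcript, the share of 37 first introns was 23.1% with vehicle and 32.6% with drug in the input, while J2 RNA gave 22.3% and 37.7%. The 77 internal introns went from 14.1% to 32.5% in the input and from 12.9% to 31.2% in J2 RNA. Last introns, 34 in number, went from 6.62% to 11.05% (input) and from 6.09% to 8.45% (J2 RNA). The 5 introns that are a transcript's only one went from 19.8% to 56.8% in the input and from 33.0% to 53.5% in J2 RNA. The 12 introns not linked to a place went from 18.3% to 9.22% in the input and from 24.3% to 18.5% in J2 RNA. These pooled shares describe reads and not a typical intron. Of 113 introns with at least 20 reads in both input groups, 16 gained 20 points or more, or 14.2%, against 16.3% of 48504 introns of all genes tested. In J2 RNA 15 of 100 did, against 14.9% of 44754. The share of introns that gained was thus near that of all genes, although the family's starting share was higher: the median was 4.09% against 0.232% with vehicle in the input. Of the 165 introns, 34 overlap an exon of another gene, and without strand information in the counting their reads cannot be assigned.

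Intron 3′ ends are printed for introns between coding exons where a GENCODE 29 transcript on GRCh38 contained them, to set introns of different behaviour side by side. Each line is the last 60 bases of an intron, with the closing AG in capitals, after its input share with vehicle and with drug. The first pair is an intron that gained and one that stayed low, the second the intron of ZNF274 that gained more and the one that gained less, and the third an intron rich in reads with and without drug and one poor in them in both.
ZNF317 intron 3, 43.6% and 96.3% (chr19:9157208-9157267, plus strand): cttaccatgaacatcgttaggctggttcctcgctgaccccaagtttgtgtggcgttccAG
ZNF584 intron 3, 2.48% and 0.472% (chr19:58416751-58416810, plus strand): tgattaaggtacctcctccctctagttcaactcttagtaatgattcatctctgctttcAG
ZNF274 intron 6, 24.2% and 55.9% (chr19:58211500-58211559, plus strand): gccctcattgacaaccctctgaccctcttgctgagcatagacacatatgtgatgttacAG
ZNF274 intron 5, 27.9% and 36.5% (chr19:58209901-58209960, plus strand): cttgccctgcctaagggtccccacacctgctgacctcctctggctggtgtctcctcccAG
ZNF333 intron 7, 75.4% and 78.5% (chr19:14715322-14715381, plus strand): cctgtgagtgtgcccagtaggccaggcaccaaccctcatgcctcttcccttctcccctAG
ZNF414 intron 5, 0% and 1.52% (chr19:8511537-8511596, minus strand): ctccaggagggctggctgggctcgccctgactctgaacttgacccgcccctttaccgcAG
Pyrimidines made up 60% of the last 40 bases in ZNF317 intron 3 and 70% in ZNF584 intron 3. They made up 55% in ZNF274 intron 6 and 75% in its intron 5. ZNF333 intron 7, at 72.5%, was richer than ZNF414 intron 5, at 67.5%, although it held far more intronic reads. The median was 70% over the 33 member introns that could be read and 65% over 16187 introns of all genes, so both ZNF317 intron 3 and ZNF274 intron 6 lay below the members' median and ZNF333 intron 7 above it. The single introns of ZNF579 and ZNF524, not between coding exons and so not printed, also gained and lay above the median. They had 87.5% and 72.5% pyrimidines, and their input shares went from 17.9% to 75.5% and from 14.5% to 71.7%. Introns that gained thus lay on both sides of the median.

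J2 RNA and input differed in many members. With vehicle, spliced reads were higher in J2 RNA than in input in 3 members and lower in 16 (edgeR), where 16.4% of all genes were higher and 44.3% lower, with medians of -0.35 and -0.28. Median-of-ratios scaling, which moves the median of all genes to 0.10, gave 12 higher and 4 lower, so the direction of the family as a whole depends on the scaling. Of all 8461 genes 3049 were then higher and 2280 lower. The count of 16 was also 5 to 10 without either input vehicle or either J2 vehicle library (5 without the second input vehicle library). With drug, 11 members were higher and 16 lower, where 28.2% and 27.4% of all genes were, with medians of -0.17 and 0.02. Without the first or second input drug library 6 or 7 were higher.

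Some members were called whichever library was left out. With vehicle ZNF226 was higher in J2 RNA, at 6.19 and 6.26 RPM against 3.54 and 4.0 RPM in the input (log2 difference 0.72 ± 0.13, edgeR adjusted p = 0.00093). ZNF615 was lower, by -1.16 ± 0.26 on the log2 scale (edgeR adjusted p = 0.0036), and ZNF333 by -0.83 ± 0.17 (edgeR adjusted p = 0.0022). With drug ZNF71, ZNF414 and ZNF749 were higher in J2 RNA, with log2 differences of 1.35 ± 0.22, 1.04 ± 0.12 and 0.86 ± 0.16 (edgeR adjusted p = 0.00058, 5.6e-05 and 0.0016). ZNF480, ZNF468 and ZNF264 were lower, with log2 differences of -2.07 ± 0.29, -1.60 ± 0.26 and -1.22 ± 0.20 (edgeR adjusted p = 0.00022, 0.00056 and 0.00066). ZNF468 had 2.70 and 3.60 RPM in input with drug and 1.02 and 1.06 RPM in J2 RNA with drug. For these 9 genes the calls held with any 1 library left out. The 2 kinds of RNA did not overlap, which the rule for named genes required of all but ZNF615.

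The drug effect itself differed between J2 RNA and input for 16 members. This interaction, the log2 effect of the drug in J2 RNA less its effect in input RNA, was higher in 10 members and lower in 6 (edgeR), where 35.8% and 13.8% of all genes were, with medians of 0.16 and 0.28. With median-of-ratios scaling, which moves the median of all genes from 0.28 to -0.05, the split was 2 higher and 11 lower, and of the 10 higher members ZNF333 and ZNF414 were still called. Of all 8461 genes 1817 were then higher and 2189 lower. Leaving out either input vehicle, either input drug or the first J2 vehicle library left 4 to 6 higher members, and leaving out either input vehicle or the second input drug library left 3 lower ones. ZNF480 and ZNF146 had the most negative interactions that held with any 1 library left out, -1.82 ± 0.38 and -1.26 ± 0.22 (edgeR adjusted p = 0.0036 and 0.0015). ZNF146 rose in both kinds of RNA, by 1.72 in the input and by 0.46 ± 0.16 in J2 RNA (edgeR adjusted p = 0.024), a J2 call lost without the second J2 vehicle or first J2 drug library (adjusted p up to 0.166). ZNF414 and ZNF333 had positive interactions, 0.98 ± 0.16 and 0.94 ± 0.23 (edgeR adjusted p = 0.00093 and 0.0075), and ZNF787 0.61 ± 0.11 (edgeR adjusted p = 0.002). With median-of-ratios scaling that of ZNF787 was 0.27 (adjusted p = 0.101). For the ratio 2 members, ZNF524 and ZNF358, were lower and 0 higher (limma, 7 and 3 at an unadjusted p under 0.05), where 4.42% and 4.59% of all genes were. The 2 became 0 without the first input vehicle, the second input drug or either J2 drug library, and 1 without the second input vehicle, first input drug or second J2 vehicle library, and 1 was higher without the second J2 vehicle library.

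The members differ in protein architecture. A KRAB pattern was found in the annotated proteins of 37 members and not in 15, and all 52 had at least 1 finger of the form cysteine, 2 to 4 residues, cysteine, 12 residues, histidine, 3 to 5 residues, histidine. Members with the KRAB pattern had a median of 12 fingers, and members without it 7. The 15 without it are ZNF134, ZNF146, ZNF329, ZNF358, ZNF414, ZNF428, ZNF444, ZNF446, ZNF524, ZNF526, ZNF574, ZNF576, ZNF579, ZNF581 and ZNF787. In the input, spliced reads rose in 15 and fell in 3 of the 37 with the pattern (median log2 change 0.42), and rose in 3 and fell in 4 of the 15 without it (median -0.01). Of the 18 members that met the RPM rule through drug libraries, 16 have the pattern, so the first of these counts is partly set by the rule. Among members that met it in both treatments, 6 rose and 2 fell of 18 with the pattern (median 0.26), and 2 rose and 3 fell of 11 without it (median -0.01). The ratio rose in 10 and fell in 3 of the 37 (median 0.25), and rose in 8 and fell in 0 of the 15 (median 1.57, limma, 0 falls also at an unadjusted p under 0.05). Of all genes tested 58.4% rose and 2.15% fell (median 1.68), so the median of the 15 was near that of all genes. Among members that met the RPM rule in both treatments, the ratio rose in 6 of 18 with the pattern (median 0.12) and in 6 of 11 without it (median 1.57). It fell in 0 of either (0 also at an unadjusted p under 0.05), so the 3 falls came from members admitted through 1 treatment. No test of the difference between members with and without the pattern was made.

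The same division runs along base composition. Transcripts with the pattern had a median G + C content of 43.4%, and those without it 61.9%. In classes set after the values were seen, the 26 members under 45% G + C had 12 rises and 1 fall in input spliced reads, with a median log2 change of 0.64. The 16 members at 55% or more had 3 rises and 4 falls (median -0.21), where 21.8% of all genes rose and 48.7% fell (median -0.38). The RPM rule was met through drug libraries by 11 of the 26 and by 2 of the 16, so these counts are partly set by it. Among members that met it in both treatments, 5 rose and 0 fell of 12 under 45% (median 0.46, edgeR, 0 falls also at an unadjusted p under 0.05), and 2 rose and 3 fell of 12 at 55% or more (median -0.09). The ratio in the input rose in 9 and fell in 0 of those 16 (median 1.67, limma, 0 falls also at an unadjusted p under 0.05), and rose in 4 and fell in 3 of the 26 (median -0.04). The 16 were thus near all genes tested, of which 58.4% rose and 2.15% fell (median 1.68). Among members that met the RPM rule in both treatments, the ratio rose in 6 of 12 at 55% or more (median 1.42) and in 3 of 12 under 45% (median -0.23). It fell in 0 of either (0 also at an unadjusted p under 0.05), so the 3 falls came from members admitted through 1 treatment. The interaction in spliced reads was positive and past the threshold in 8 of the 16 and in 1 of the 26, where 35.8% of all genes were. It was negative and past it in 4 of the 26, where 13.8% of all genes were. With median-of-ratios scaling only ZNF414, of the 16, and ZNF333, of the 26, were still called positive, while the 4 negative calls stayed. Over the 52 members, Spearman's correlation with G + C content was -0.46 for the input change in spliced reads, 0.56 for the input change in the ratio and 0.57 for the interaction. Over the 29 that met the rule in both treatments it was -0.37, 0.47 and 0.70. In 101 ZNF genes of other chromosomes these were -0.20, 0.40 and 0.29. The points share their libraries, the correlations are descriptions, and the KRAB pattern and base composition cannot be told apart over these members.

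**Figure D5:**
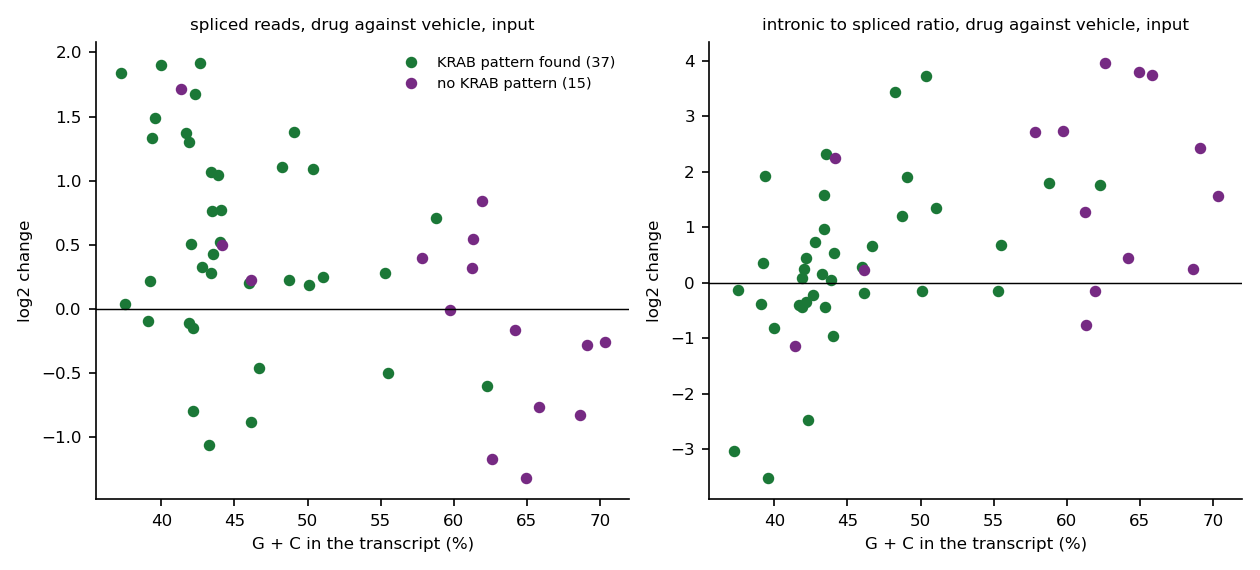
Log2 change with drug in input RNA against the G + C content of the transcript in percent, for spliced reads (left) and the intronic to spliced ratio (right); each point is 1 of the 52 members, coloured by whether a KRAB pattern was found (37) or not (15). Spliced changes lie mostly above 0 at low G + C content, and ratio changes lie mostly above 0 at high G + C content.

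By position the members fall into 10 runs with gaps over 1000000 bases between them. For comparison, spliced reads of all genes tested rose in 21.8% and fell in 48.7% in the input, and rose in 34.6% and fell in 39.5% in J2 RNA. In the run of 10 members from ZNF649 to ZNF765 (chr19:51891898-53407697), spliced reads rose in 5 in the input, with a median log2 change of 1.18 over the run. Of these 10, 6 met the RPM rule through drug libraries, which favours a rise, and of the other 4 only ZNF615 rose (median 0.13). In the run of 20 members nearest the end of the long arm, from ZNF579 to ZNF446 (chr19:55579642-58479929), 2 rose and 5 fell (median 0.02), and 10 rose and 3 fell in J2 RNA. The ratio in the input rose in 9 of those 20 and in 1 of the run of 10, where 58.4% of all genes rose. Neighbours are recent copies of each other and may share reads, so members of a run are not independent.

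ZNF genes elsewhere and other genes of chromosome 19 gave the setting. Of 102 ZNF genes on other chromosomes that met the RPM rule, 32 rose and 29 fell in input spliced reads (median 0.04), and 45 rose and 4 fell in the ratio (median 1.21). Of 533 other genes of chromosome 19, 97 rose and 329 fell in input spliced reads (median -0.55), and 426 rose and 4 fell in the ratio (median 2.40). The medians of the 52 members, 0.30 and 0.40, lay above the spliced median and below the ratio median of both sets. The difference between the sets was not tested.

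Corepressors that KRAB proteins recruit, were a list of 22 genes tested. In the input 4 of them (18.2%) rose and 11 (50%) fell in spliced reads (median log2 change -0.30), shares near the 21.8% and 48.7% of all genes. In J2 RNA 8 of them (36.4%) rose, where 34.6% of all genes did, and 5 (22.7%) fell, where 39.5% did (median 0.11). Their ratio rose in 16 (72.7%) and fell in 1 in the input (median 1.95), where 58.4% and 2.15% of all genes did. The list as a whole is given for its levels and not as a result of its own. TRIM28, the corepressor that binds KRAB, had 175.3 and 171.3 RPM with vehicle and 154.2 and 158.6 RPM with drug in the input (log2 change -0.15 ± 0.05, edgeR adjusted p = 0.031). Its J2 change was 0.10 ± 0.05 (edgeR adjusted p = 0.099), and its ratio rose by 3.24 ± 0.24 in the input (limma adjusted p = 8.3e-08), though intronic reads stayed under 3.30% of its reads. Summed over its listed introns, TRIM28 thus stayed far above any member. Such sums grow with the number of listed introns, and levels per intron were not compared. The 4 that rose in the input were PPHLN1, by 1.05 on the log2 scale, CBX1, which encodes an HP1 protein, by 0.93, MORC2 by 0.32 and MTA2 by 0.31 (edgeR adjusted p = 0.0096, 4.7e-05, 0.0067 and 0.0005). The 3 largest falls there were those of FAM208A (TASOR), a subunit of the HUSH silencing complex, which fell by 3.44, and of the histone-binding proteins RBBP7 and RBBP4, which fell by 1.93 and 1.89 (edgeR adjusted p = 2.3e-05, 2.9e-05 and 0.00075). SETDB1 did not meet the RPM rule, with 17 to 21 spliced reads per input library.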

How the data were processed

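RNA from 8 libraries of SUM159 cells was sequenced from polyadenylated RNA with a stranded kit, per the labels' protocols. HISAT2 2.0.4 and 2 builds, hg38 and mm10, appear in the submitters' processing notes. The counting program, strand setting, choice of introns and handling of reads with several matches are not given in the sources used here. The deposited tables have no header. They give per intron a read count inside it and a second count that is never smaller, both deposited without normalization. The excess of the second was taken as spliced reads, which is inferred from the values. The deposited tables also hold RPKM. The authors made it from the intronic count, intron length and a rounded depth, and that depth served as library size.

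Reads were summed per gene over its introns. Spliced and intronic counts were tested with edgeR 4.0.16 (quasi-likelihood) and the ratio with limma 3.58.1 on log2 values with 1 added to each count, in R 4.3.3. All 8 libraries entered 1 fit with 4 group means, with Benjamini-Hochberg adjustment over 8461 genes (threshold 0.05). The SE of an edgeR change is its size over the square root of F and can be too small where reads are few. DESeq2 1.42.0, median-of-ratios scaling, no RPM filter (10 or more spliced reads in all), an intronic filter, a pseudocount of 3, introns free of other genes' exons, a replicate block and leaving out each library were alternatives. The fits were tested on simulated counts. Introns, proteins and transcripts were matched to GENCODE 29 on GRCh38.

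Named genes are, per comparison, up to 4 members each way (3 for J2 against input and the interaction) with the largest change past the threshold, 1 sign in every pair of libraries and 2 or more RPM in 1 group, and ZNF146, ZNF160 and ZNF274. ZNF45, ZNF324B, ZNF428, ZNF524, ZNF579, ZNF584 and ZNF850, where given values, were chosen after their values were seen, as were the splits of KRAB, G + C and position classes over the 29 members that met the RPM rule in both treatments and the gains per intron. The members, the lists and the rules were chosen with earlier results of these data known. The labels call the 2 libraries of a group biological replicates and do not say what separated them. The labels name no molecular identifiers, so reads are not counted here as independent molecules.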

Additional observations from a re-analysis of the deposited data

Results flagged for a closer look

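For 16 members the drug effect on spliced reads differed between J2 RNA and input by a test of the difference itself (edgeR's quasi-likelihood test, adjusted p under 0.05). Over all genes tested 35.8% were called higher and 13.8% lower by the same test, so such calls are common outside the family. The values are log2 drug effects in J2 RNA minus those in the input. In 6 members the effect was lower in J2 RNA: ZNF480 by -1.82, ZNF45 by -1.63, ZNF146 by -1.26, ZNF350 by -1.03, ZNF264 by -0.95 and ZNF544 by -0.45. Of these ZNF480, ZNF45 and ZNF264 fell in J2 RNA without passing the test in the input, ZNF146 and ZNF350 rose in both, and ZNF544 fell in both. ZNF45 had 1.00 and 0.980 RPM with vehicle and 1.26 and 1.58 RPM with drug in the input, but 1.28 and 1.37 RPM with vehicle and 0.780 and 0.453 RPM with drug in J2 RNA.

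In 10 members the effect was higher in J2 RNA: ZNF324B by 1.38, ZNF581 by 1.1, ZNF71 by 1.09, ZNF414 by 0.98, ZNF576 by 0.97, ZNF324 by 0.95, ZNF333 by 0.94, ZNF358 by 0.78, ZNF274 by 0.69 and ZNF787 by 0.61. With median-of-ratios scaling ZNF333 and ZNF414 were still called and the other 8 were not (adjusted p from 0.058 to 0.253), whereas all 6 lower members above were. ZNF787 had a log2 change of -0.26 in the input (edgeR adjusted p = 0.018) and of 0.35 in J2 RNA (edgeR adjusted p = 0.0027). Its input call was lost without the first or the second input vehicle library (adjusted p = 0.093 and 0.061) and with DESeq2 (0.075), and with median-of-ratios scaling the input value was 0.16 (adjusted p = 0.139). ZNF581 had 1.79 and 2.12 RPM with vehicle and 2.38 and 2.5 RPM with drug in the input, and 1.17 and 0.754 RPM with vehicle and 2.42 and 2.72 RPM with drug in J2 RNA. ZNF71 had 1.46 and 1.88 RPM with vehicle and 1.21 and 1.15 RPM with drug in the input, and 1.92 and 2.07 RPM with vehicle and 2.84 and 3.17 RPM with drug in J2 RNA. The difference kept its call with any 1 library left out in ZNF480, ZNF146, ZNF333, ZNF414 and ZNF787. DESeq2 did not call it in ZNF274, ZNF324, ZNF324B, ZNF350, ZNF358 and ZNF544 (adjusted p from 0.057 to 0.159). ZNF324B is a near copy of ZNF324, and their reads may be shared.

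For the intronic to spliced ratio the drug effect was smaller in J2 RNA by the same kind of test (limma) in ZNF524, by -1.89, and in ZNF358, by -1.33. Over all genes tested 4.42% were called smaller and 4.59% larger. The intronic share of ZNF524 was 14.8% and 14.3% with vehicle and 67.4% and 77.1% with drug in the input, and 57.7% and 56.5% with vehicle and 85.3% and 82.1% with drug in J2 RNA, so its J2 libraries started higher. Its single intron overlaps an exon of another gene, whose part in the result was not tested.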

How the results depend on the processing

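Of 96 calls of named members, 67 were unchanged with median-of-ratios scaling, 19 no longer passed and 10 turned, while 88 were unchanged without the RPM filter and 53 of 72 with DESeq2. That scaling sets the median gene near 0 in each measure by construction. Under it the members higher and lower numbered 30 and 2 for the input drug effect on spliced reads, 12 and 4 for J2 against input with vehicle and 2 and 11 for the interaction. For intronic reads the input gave 10 and 11 and J2 RNA 9 and 16, and for the ratio the input gave 5 and 18 and J2 RNA 6 and 26.

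Without the RPM filter, which admits more genes, lower members for the drug effect on spliced reads numbered 14 in the input and 21 in J2 RNA, and 26 for J2 against input with drug, and higher members 5 for J2 against input with vehicle. Intronic reads then fell in 8 members of the input and 10 of J2 RNA, the ratio rose in 28 and fell in 9 in the input and rose in 29 in J2 RNA, and its interaction was higher in 2. DESeq2 gave 10 lower members for J2 against input with vehicle, 6 higher with drug and 6 higher for the interaction. With the intronic filter, which tests fewer genes, intronic reads rose in 12 and fell in 1 in the input and rose in 12 and fell in 0 in J2 RNA. The ratio then fell in 0 in the input, rose in 10 and fell in 0 in J2 RNA, and its interaction was higher in 1, as it was with a pseudocount of 3. With introns free of other genes' exons, intronic reads fell in 1 member in the input and 1 in J2 RNA, the ratio fell in 3 in J2 RNA and its interaction was lower in 0.

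Values that turned, whether or not they had passed the threshold before, with median-of-ratios scaling were, for the ratio in J2 RNA, ZNF160 at -1.50, ZNF274 at -1.18, ZNF324 at -0.23, ZNF333 at -1.69, ZNF350 at -1.65, ZNF358 at -0.69, ZNF468 at -0.22, ZNF544 at -0.78, ZNF547 at -1.33 and ZNF749 at -1.66. For the ratio in the input they were ZNF274 at -0.38, ZNF333 at -1.20, ZNF444 at -1.49, ZNF468 at -1.37, ZNF544 at -1.06 and ZNF787 at -0.16. For spliced reads they were ZNF544 at 0.017 (J2 against input with vehicle) and ZNF787 at 0.16 (drug in the input). ZNF749's input ratio turned to 2.56 without introns that hold another gene's exon.

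Leaving out 1 library at a time, the drug effect on spliced reads rose in 13 to 21 and fell in 4 to 10 members in the input, and rose in 19 to 26 and fell in 6 to 8 in J2 RNA. J2 against input was higher in 2 to 3 and lower in 5 to 17 with vehicle, and higher in 6 to 11 and lower in 11 to 17 with drug. The interaction was higher in 4 to 12 and lower in 3 to 7. Intronic reads rose in 16 to 20 and fell in 1 to 2 in the input, and rose in 16 to 21 and fell in 1 to 3 in J2 RNA. The ratio rose in 14 to 18 and fell in 1 to 3 in the input, rose in 13 to 18 and fell in 3 to 6 in J2 RNA, and its interaction was higher in 0 to 1 and lower in 0 to 2. A lone library was assumed to vary like the other groups. Where no cause is named above, the cause was not tested.

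The libraries share only replicate numbers, and same-numbered libraries correlated from -0.077 to 0.0999 in their deviations, none of 6 pairs of groups over 0.1. With the replicate block, spliced reads rose in 17 and fell in 7 members in the input and rose in 24 and fell in 8 in J2 RNA, and no count moved by 1.5 times. With 10 members under 20 intronic reads in the input and 15 in J2 RNA, depth limits the ratio in those members.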
